A study of Mus musculus with 8 samples.

Results

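Cytosolic ribosomal protein genes were followed in whole pancreas of mice that carried floxed Daxx alleles with a Pdx1-Cre transgene (Daxx fl/fl Pdx1-Cre Tg, the DC group, 4 libraries) and of wild-type mice (WT, 4 libraries), all 6 weeks old. The set was chosen by name: gene symbols starting with Rpl or Rps and a digit, the stalk genes Rplp0 to Rplp2, and Rpsa, with a mean of at least 10 normalized counts over the 8 libraries. Of 11789 listed genes, 80 had such a name once the S6 kinase genes and 1 further gene were left out, and 79 reached the minimum: 46 of the large subunit and stalk, and 33 of the small subunit. Rpl36al fell short of it, with 5.16, 4.17, 7.29 and 11.5 normalized counts in DC replicates 1 to 4, against 11.5, 2.61, 2.92 and 6.20 in WT replicates 1 to 4. The name rule also took in 4 genes that are not standard ribosomal proteins, namely the paralogs Rpl22l1, Rpl7l1 and Rps27l and the S19-binding protein gene Rps19bp1, which leaves 75 standard members. Stranded libraries were made from total RNA of whole pancreas, and the series describes 4 animals of each genotype, 2 of each sex, with no label that gives the sex of a library. Pdx1-Cre acts in the precursors of acinar, ductal and endocrine cells, so vessels, stroma, fat and immune cells keep an intact Daxx. The controls are labelled wild type, with no group that carries Cre or the floxed alleles alone, so effects of these and of Daxx loss cannot be told apart. Daxx, a chaperone of a histone H3 variant, had 26.8, 23.3, 29.2 and 32.5 normalized counts in DC libraries, against 39.7, 58.7, 46.7 and 45.2 in WT libraries, with no overlap (exact two-sided permutation p = 0.0286, the smallest that 4 against 4 can give).

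Cytosolic ribosomal proteins assemble with ribosomal RNA into a small subunit, which decodes the mRNA, and a large subunit, which joins amino acids and carries a stalk that recruits elongation factors. Acinar cells of the pancreas make digestive enzymes in bulk and are packed with ribosomes on rough endoplasmic reticulum. Messenger RNAs of ribosomal proteins typically begin with a C followed by a run of pyrimidines, the terminal oligopyrimidine (TOP) tract, through which mTOR signalling and Larp1 set how well they are translated. Their mRNA level and their translation are therefore separate quantities, and only the level was measured here.

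The starts of 8 members are shown because the comparisons below turn on them or because they show the tract clearly. RefSeq promoters (GRCm38.p6) were found for 60 of the 79 members, and a pyrimidine run was searched on the sense strand. Each unbroken stretch of C and T was taken from its first C on, and counted where that C lay within 10 bases of the annotated start and at least 5 further C or T followed. Such a run was present in 30 of the 60 members (50%), against 20.4% of all 27025 genes with a promoter in the table. With any C of a stretch allowed as the first base, the numbers were 33 of 60 (55%), against 21.9% of all genes. Each line gives 60 bases before the annotated start and 20 from it on, 5′ to 3′, so that the start is base 61, and capitals mark the run.
Rps6: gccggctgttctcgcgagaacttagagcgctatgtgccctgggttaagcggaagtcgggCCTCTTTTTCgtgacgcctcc
Rpl15: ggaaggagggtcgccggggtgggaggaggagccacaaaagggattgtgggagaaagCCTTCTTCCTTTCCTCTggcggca
Rpl22l1: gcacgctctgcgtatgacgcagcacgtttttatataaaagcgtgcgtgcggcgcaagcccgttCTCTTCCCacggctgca
Rps2: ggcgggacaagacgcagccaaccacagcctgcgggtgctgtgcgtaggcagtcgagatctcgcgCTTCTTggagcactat
Rpl34: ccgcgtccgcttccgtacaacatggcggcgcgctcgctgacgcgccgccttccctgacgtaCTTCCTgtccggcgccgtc
Rps27l: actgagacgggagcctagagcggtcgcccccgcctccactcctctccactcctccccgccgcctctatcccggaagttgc
Rps3a1: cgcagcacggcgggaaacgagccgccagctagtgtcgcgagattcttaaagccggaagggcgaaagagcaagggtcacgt
Rplp0: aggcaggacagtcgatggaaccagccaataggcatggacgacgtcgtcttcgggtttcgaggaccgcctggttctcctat
The windows of Rps27l, Rps3a1 and Rplp0 had no run by the first rule, which says only that these letters are not at that position. By the second rule Rps27l had one, inside a longer stretch of C and T that begins further upstream, and Rps3a1 and Rplp0 had none. They lie on chromosome 4 (Rps6, chr4:86857348-86857427, minus strand), 14 (Rpl15, chr14:18270967-18271046, minus), 3 (Rpl22l1, chr3:28805448-28805527, plus), 17 (Rps2, chr17:24720003-24720082, plus), 3 (Rpl34, chr3:130730379-130730458, minus), 9 (Rps27l, chr9:66946026-66946105, plus), 3 (Rps3a1, chr3:86142649-86142728, minus) and 5 (Rplp0, chr5:115559407-115559486, plus). Over the full 300-base promoters, searched on both strands, the Ets-type string CCGGAAG was found in 25 of 60 members (41.7%), against 9.93% of all genes, and GCCATNTT, the core of YY1 sites with N for any base, in 12 (20%), against 6.96%. The string TATAAA was found in 7 of 60 members (11.7%), against 15.7% of all genes. The reverse complement of CCGGAAG begins with C and T and can share bases with a pyrimidine run.

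Most ribosomal protein genes lay within a narrow band of levels. Over the 8 libraries the 79 members had a median of 971 normalized counts, against 71.2 for all 10468 genes tested, and ran from 14.2 to 4012. Levels of different genes are compared here per kilobase of the shortest principal transcript in GENCODE M21. On that scale 65 of 79 members lay between 500 and 3000 normalized counts per kilobase, with a median of 1370.0 per kilobase, and the medians were 1212 per kilobase for the large subunit and 1459 per kilobase for the small subunit. Annotated models with long tails, such as that of Rps20 (325 per kilobase), lower this value.

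The highest level per kilobase was that of Rplp1, a stalk protein, at 7216 normalized counts per kilobase. It was followed by Rpl41, which encodes a very short peptide of the large subunit, at 6338 per kilobase, Rpl32 at 4933, Rps12 at 4058 and Rpl10 at 3758. The other stalk genes, Rplp0 and Rplp2, stood lower, at 2226 and 2129.9 per kilobase. In the cell the stalk proteins of Rplp1 and Rplp2 are found as paired dimers on the protein of Rplp0.

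At the low end 3 members stood apart, the next being the paralog Rpl7l1 at 168 normalized counts per kilobase: Rpl13a at 40.6 normalized counts per kilobase, Rps10 at 28.5 and Rps19bp1 at 25.1. Rps10 rested on 4 to 23 reads per library and Rpl13a on 19 to 59. Rps10 and Rpl13a encode standard ribosomal proteins, and both overlap a read-through or predicted coding gene on the same strand (RPS10-NUDT3 and Gm45713 in GENCODE M21) and have 4 and 1 pseudogenes named after them. Rpl13, with 6 pseudogenes named after it, also overlaps a coding gene on its strand (Gm20388) and stood at 1507 normalized counts per kilobase. Of all 79 members, 59 have pseudogenes that carry their name. The treatment of reads shared with such copies is not stated here, so the levels of these members are uncertain. Rps27a, which encodes ubiquitin fused to a small subunit protein, had 956, 859, 1015 and 1087 in DC libraries, against 938, 948, 892 and 845 in WT libraries. The groups overlapped.

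**Figure D1:**
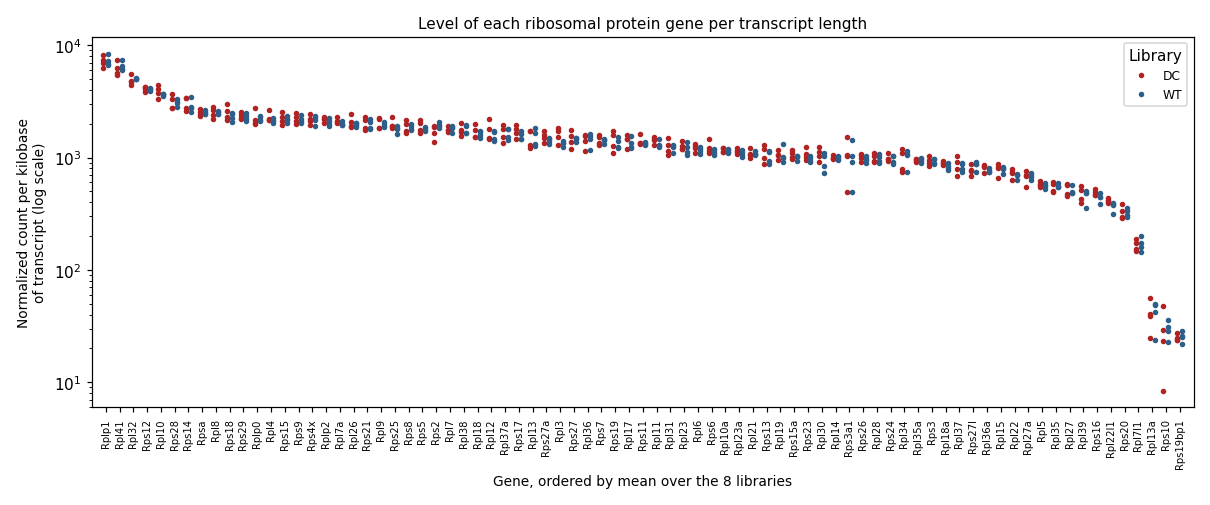
Level of each of the 79 members as normalized count per kilobase of transcript (log axis), with 1 point per library, DC left of WT for each gene. The libraries of both genotypes lie on top of each other for most genes, Rplp1 is highest at a mean of 7216 and Rps19bp1 lowest at 25.1, and Rps3a1 and Rps10 are spread widely.

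No ribosomal protein gene passed the test between DC and WT. With limma on log2(normalized count + 1), adjusted by Benjamini-Hochberg over all 10468 genes tested, 0 of 79 members had an adjusted p under 0.05, and 0% of all genes did. Daxx, whose alleles were floxed in DC mice, did not pass either. Its log2 fold change was -0.74, at an unadjusted limma p of 0.0024 and an adjusted p of 0.9997. At an unadjusted p under 0.05 there were 0 members, against 2.88% of all genes tested. On recovered reads, edgeR's quasi-likelihood test gave 0 members at an adjusted and 0 at an unadjusted p under 0.05, against 0% and 2.86% of all genes. DESeq2 gave 0 members at an adjusted and 1 at an unadjusted p under 0.05, against 0.00955% and 2.09% of all genes. The log2 fold changes of the members, DC over WT, had a median of 0.03 and ran from -0.31 to 0.24, and 72 of 79 were within 0.15 of 0. By direction 58 lay above 0 and 21 below, while over all genes tested 48.1% lay above and 51.9% below.

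By the median, the intervals of the members were narrower than those of all genes tested. The 95% interval of a member's log2 fold change reached a median of 0.23 to each side, which is 1.17-fold, against 0.41 for all genes tested. The members are more abundant, at a median of 971 against 71.2 normalized counts, and the intervals were not compared with genes of like abundance. For 76 of the 79 members the whole interval lay within 1.5-fold in both directions. The intervals of the 3 others, Rps10, Rpl13a and Rps3a1, reached beyond 1.5-fold, so larger differences were not excluded for them. These readings hold for the deposited scaling with all 8 libraries, and were not repeated for other settings. With all libraries set to equal totals, the median log2 fold change of the members was 0.15, against 0.03. That of Rpl30 was then 0.35 ± 0.16 (SE), against 0.23 ± 0.14. In bulk tissue a change in the number of cells and a change in RNA per cell cannot be told apart.

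**Figure D2:**
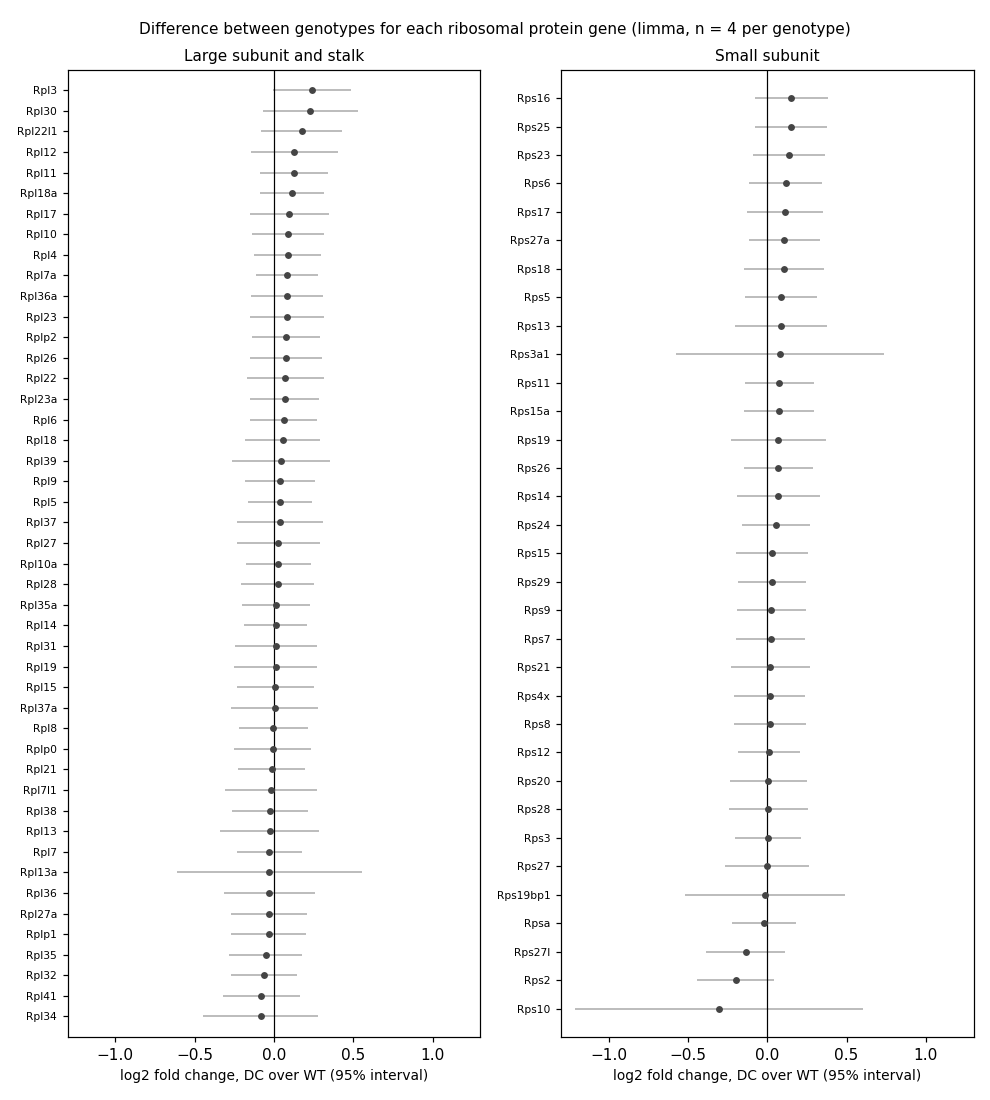
The log2 fold change, DC over WT, of each member with its 95% limma interval (n = 4 per genotype), large subunit and stalk at left and small subunit at right. All 79 intervals include 0, and those of Rps10, Rpl13a and Rps3a1 are the widest.

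The member with the smallest unadjusted p was Rpl3, a core protein of the large subunit beside the site where amino acids are joined. It had 1728, 2072, 2314 and 2483 normalized counts in DC replicates 1 to 4, against 1821, 1821, 1904 and 1676 in WT replicates 1 to 4. DC replicate 1 lay among the WT libraries, and the other DC libraries lay above all of them. Its log2 fold change came to 0.24 ± 0.12 (SE), at an unadjusted limma p of 0.056 and an exact permutation p of 0.114. Rpl30, another large subunit gene, had 593, 635, 521 and 703 in DC libraries, against 629, 416, 586 and 475.4 in WT libraries, a log2 fold change of 0.23 ± 0.14 (SE) with overlapping groups, and 0.12 without WT replicate 2.

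Rpl22l1 was the 1 member whose groups did not overlap. It had 231, 217, 239.5 and 227 normalized counts in DC libraries, against 209.7, 173, 215 and 214 in WT libraries. The lowest DC value was thus just above the highest WT value, and WT replicate 2 stood below the rest. Its log2 fold change came to 0.17 ± 0.12 (SE), at an exact permutation p of 0.0286 and a limma adjusted p of 0.9997. Without WT replicate 2 the log2 fold change was 0.0998. A single member of 79 is to be read against 0.831% of all genes tested that did not overlap with DC higher, and 1.87% in either direction. Rpl22l1 encodes a paralog of Rpl22 that can take its place in the large subunit, and in mice Rpl22 protein is known to hold down Rpl22l1. Rpl22 itself had 345, 297, 351 and 378 in DC libraries, against 341, 333, 299.9 and 329 in WT libraries, so its groups overlapped. The level of Rpl22l1 as a percent of that of Rpl22 was 67.0 ± 5.31 in DC and 62.6 ± 8.17 in WT libraries (SD, n = 4 each), with overlapping values.

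Among small subunit genes, Rps25 and Rps16 had the smallest unadjusted p of those with a log2 fold change above 0. Rps25, which some viral mRNAs need to recruit ribosomes, had 1091, 1065, 1105 and 1337 normalized counts in DC libraries, against 1039, 938, 1059 and 1095 in WT libraries. DC replicate 4 was apart from its group, and the log2 fold change was 0.15 ± 0.11 (SE), or 0.08 without that library. Rps16 had 519, 513, 548 and 583 in DC libraries, against 538, 493, 427 and 493 in WT libraries, also 0.15 ± 0.11 on the log2 scale, or 0.09 without WT replicate 3. Both had overlapping groups and an exact permutation p of 0.0857.

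On the other side the smallest unadjusted p was that of Rps2, a small subunit protein at the mRNA entry channel. It had 1375, 1898, 1664 and 1848 normalized counts in DC libraries, against 1894, 2079, 1946 and 1826 in WT libraries. DC replicate 1 was lowest, the groups overlapped, and the log2 fold change came to -0.20 ± 0.11 (SE), at a limma p of 0.0966 and an exact permutation p of 0.143. Without DC replicate 1 it was -0.10. Rps27l, a paralog of Rps27 that is known as a p53 target, had 339.6, 379, 384 and 439.9 in DC libraries, against 451, 372, 433 and 438 in WT libraries, a log2 fold change of -0.14 ± 0.12 (SE), or -0.08 without DC replicate 1. As a percent of Rps27 it stood at 77.0 ± 5.68 in DC and 84.4 ± 4.89 in WT libraries (SD, n = 4 each), and the values overlapped. The next by unadjusted p among genes below 0 were Rps10 (-0.31 ± 0.43, SE), Rpl41 (-0.08 ± 0.11) and Rpl32 (-0.06 ± 0.10), all on the log2 scale and all with overlapping groups. Without DC replicate 4 Rps10 turned to 0.12, and under equal library totals Rpl41 and Rpl32 turned to 0.04 and 0.06. With 1 library left out, Rpl41 ran from -0.17 without DC replicate 4 to -0.02 without DC replicate 1, with -0.04 without DC replicate 2 and -0.02 without WT replicate 2, and Rpl32 from -0.12 without DC replicate 4 to -0.02 without DC replicate 1. Rpl32 spanned 2275 to 2832 normalized counts in DC libraries and 2586 to 2619.7 in WT libraries.

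Members with known duties outside the ribosome or in ribosome disease also overlapped between genotypes. Rpl5 and Rpl11, which bind Mdm2 when ribosome assembly fails, had 1180.1 ± 52.7 and 1188 ± 72.6 normalized counts in DC libraries, against 1149.8 ± 66.2 and 1089 ± 84.1 in WT libraries (SD, n = 4). Rps19, the first gene linked to Diamond-Blackfan anaemia in humans, had 799, 699.7, 1010.2 and 1094 in DC libraries, against 761, 879, 962 and 789 in WT libraries. Rps6, the target of the S6 kinases, had 1079 ± 138 in DC and 991 ± 52.5 in WT libraries. Rpsa, which encodes both a small subunit protein and a laminin receptor, had the highest mean of all members and 3984 ± 242 in DC and 4041 ± 161 in WT libraries. The stalk genes Rplp0, Rplp1 and Rplp2 had 3026 ± 479.9, 3560.3 ± 402 and 920.3 ± 50.8 in DC libraries, against 3019.7 ± 153, 3641 ± 386 and 873 ± 65.6 in WT libraries. The 4 members on chromosome X were Rpl10, Rpl36a, Rpl39 and Rps4x, with 3103 ± 386, 392 ± 26.9, 289.5 ± 45.2 and 2128 ± 209 in DC libraries, against 2902 ± 71.0, 369.9 ± 14.8, 281 ± 42.5 and 2101 ± 169 in WT libraries.

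Ribosomal protein genes varied little between animals, and much of what variation there was they shared. The SD of a member's log2 values over the 8 libraries had a median of 0.132, against 0.267 for all genes tested, and 68 of 79 members were under 0.2. The members are abundant, so the 1971 genes with a mean of at least 200 are the closer comparison, with a median SD of 0.173, against 0.132 for the 76 members in that range. The steadiest were Rpl14 (SD 0.049), Rpl35a (0.053), Rps12 (0.054), Rpl10a (0.068) and Rpsa (0.069). Rpl14 was at 979.6, 998, 998 and 1059 in DC libraries, against 968, 970.4, 1016 and 1048 in WT libraries.

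Under the deposited scaling the shared variation lay between libraries of the same genotype. In DC replicate 4, 73 of 79 members lay above their own mean over the 8 libraries, by a median of 0.17 log2 units, and 54 members had their highest value there. In DC replicate 3, 55 lay above their mean, and in DC replicates 1 and 2 only 24 and 20 did. In WT replicates 1 to 4 the numbers were 31, 42, 48 and 28. Over all genes tested the share above the mean was 50.3% to 52.3% in every library. Under this scaling the DC group thus held the highest and the lowest libraries for this gene set, with the WT libraries in between. As a share of all listed reads, given below, the members took 1.04% to 1.13% in DC and 0.939% to 0.988% in WT libraries, without overlap. With the 20 most abundant genes left out of the total, WT replicate 4 was lowest at 4.31%, just below DC replicate 1 at 4.33%. By subunit, 16, 14, 29 and 43 of the 46 large subunit and stalk genes lay above their mean in DC replicates 1 to 4, against 19, 21, 28 and 18 in WT replicates 1 to 4. Of the 33 small subunit genes 8, 6, 26 and 30 did so in DC replicates 1 to 4, against 12, 21, 20 and 10 in WT replicates 1 to 4.

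Pairs of members had a median Pearson r of 0.35 over the 8 libraries, and 76.0% of pairs had an r above 0. For the 75 mitochondrial ribosomal protein genes, which serve a separate ribosome, the median was 0.04, and for all genes tested -0.00059. The members are more abundant, at a median of 971 against 71.2 normalized counts for all genes tested. The mitochondrial genes summed to 4542 to 5169 normalized counts per library, against 87427 to 105833 for the members. The r values were not compared with genes of like abundance. They are descriptions over 8 libraries that share depth and scaling among all genes, here the deposited scaling. On the first principal component of the standardised values, which held 45.5% of the variance, 71 of 79 members had a loading of the same sign, and the library scores were -6.13, -4.95, 4.41 and 11.9 in DC replicates 1 to 4, against -3.18, 1.62, 0.41 and -4.05 in WT replicates 1 to 4. Without DC replicate 4 the median log2 fold change of the members was -0.00019, and 40 of 79 lay below 0. The excess of members above 0 was thus not seen without that library, and without DC replicate 1 the number below 0 was 13.

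**Figure D3:**
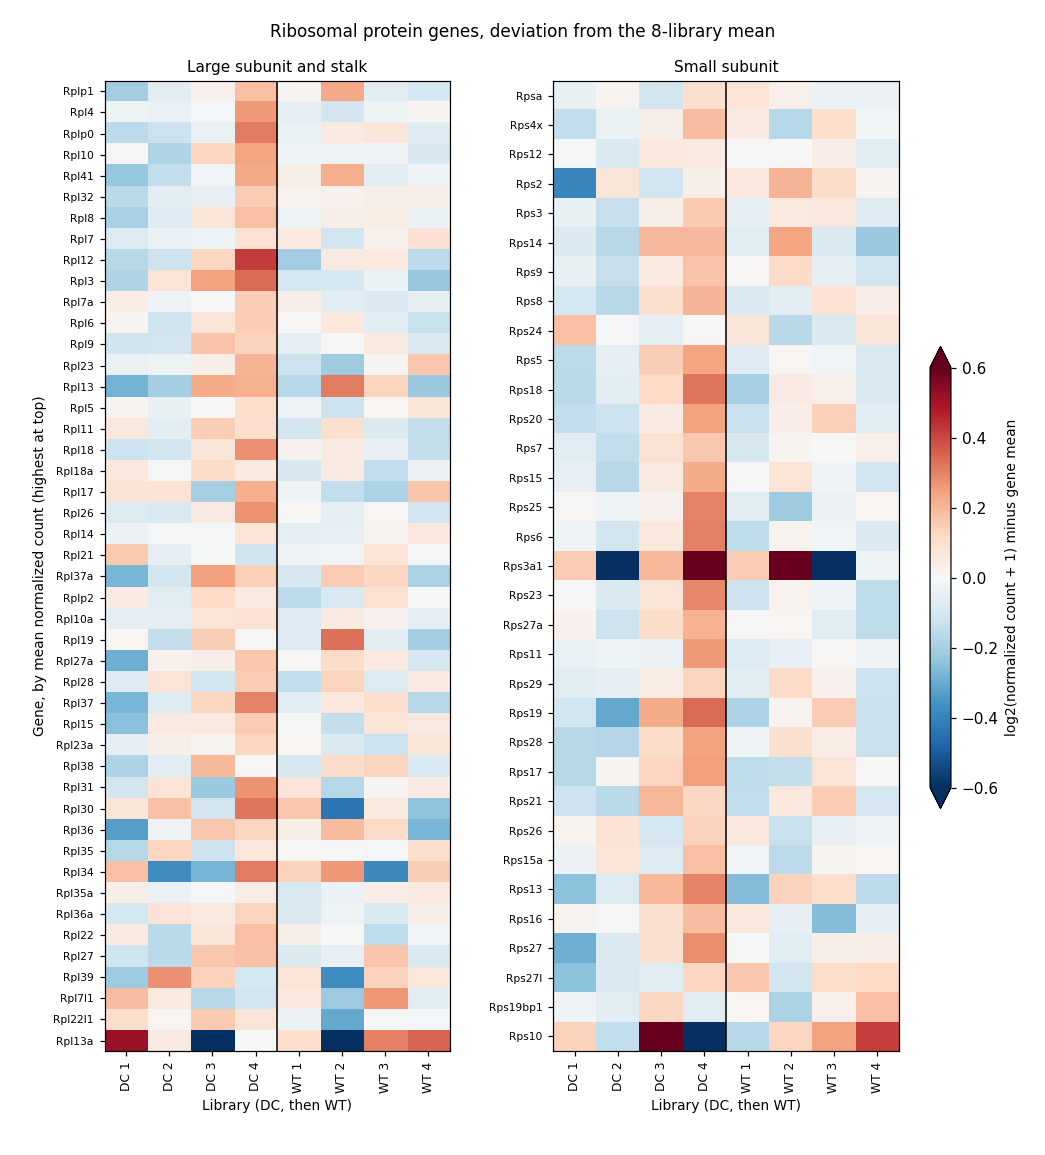
Deviation of each member's log2(normalized count + 1) from its mean over the 8 libraries (colour, cut at 0.6), with DC libraries left of WT libraries and genes ordered by mean level within each subunit. The column of DC replicate 4 is red for 73 of 79 members, and Rps3a1 and Rps10 are among the rows with the strongest colours.

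Markers of pancreatic cell types moved between these libraries too. The 14 acinar markers, all tested and 13 of them below 0 between genotypes, had a median deviation of -0.21, -0.24, 0.02 and 0.23 log2 units in DC replicates 1 to 4, against 0.05, 0.17, 0.02 and 0.02 in WT replicates 1 to 4. DC replicates 1 and 2 were thus low and DC replicate 4 was high in both gene sets. The summed level of the acinar markers ran from 4199420 to 6057660 normalized counts in DC libraries and from 5128540 to 5934980 in WT libraries. Myeloid markers (8 of 8 listed) ran the other way in DC replicate 4, with a summed level of 328 there, where the 3 other DC libraries had 493 to 883 and the WT libraries 434 to 653. Of the T cell and the B and plasma cell markers only Tcf7 and Jchain were listed, with sums of 7.23 to 34.2 and 2.10 to 69.97 in DC libraries, against 8.76 to 18.6 and 0 to 19.6 in WT libraries. Islet markers (7 of 7 listed) deviated by a median of -1.07, -0.94, 1.05 and 0.21 log2 units in DC replicates 1 to 4, against 1.25, -0.69, 0.25 and -0.12 in WT replicates 1 to 4. They too were low in DC replicates 1 and 2 and high in DC replicate 3, but they were highest in WT replicate 1 and low in WT replicate 2. In those WT libraries 31 and 42 of the 79 ribosomal protein genes lay above their mean. The summed levels of the islet markers were 1633 to 7397 in DC and 2059 to 7643 in WT libraries. Adipocyte markers (3 of 4 listed) had a median deviation of -2.69 log2 units in DC replicate 4, where Adipoq had 0 and Plin1 1.05 normalized counts. Fabp4, the most abundant of them, was not low there, at 58.8, against 57.8, 124 and 57.3 in DC replicates 1 to 3. The sums of the 3 markers were 59.8 to 242 in DC and 58.4 to 132 in WT libraries. Erythroid markers (5 of 5 listed) deviated by -0.38, -0.14, 0.56 and 0.05 in DC replicates 1 to 4, with sums of 349 to 529 in DC and 257 to 567 in WT libraries. Ductal (8 of 8), fibroblast (7 of 7) and endothelial markers (5 of 5) summed to 2738 to 3085, 3379 to 5512 and 401 to 526 in DC libraries, against 2637 to 3243, 3113 to 4873 and 435 to 511 in WT libraries. The part of cell mixture in the ribosomal protein levels was not tested.

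Rps3a1 stood apart from all other abundant members. This small subunit gene (ENSMUSG00000028081.6, chromosome 3, 86137940 to 86142702, GRCm38, minus strand) had 1003, 482, 1036 and 1485 normalized counts in DC replicates 1 to 4, against 1005, 1390.3, 481 and 886 in WT replicates 1 to 4. Each genotype held 1 library near 480, 1 library at 1390.3 or more, and the other two between 886 and 1036. Its SD on the log2 scale was 0.613, against the median of 0.132, on 494 to 1414 reads per library. The group means were 1002 ± 409.9 in DC and 941 ± 374 in WT libraries (SD, n = 4 each), with an exact permutation p of 0.714.

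Rpl34, a large subunit gene further along chromosome 3 (130726831 to 130730398, minus strand), was low in the same pair of libraries and in 1 more. It had 523, 356, 380.1 and 574 in DC libraries, against 508, 553, 354 and 513 in WT libraries, with an SD of 0.294 on the log2 scale. None of the 6 tested genes that start within 1000000 bases of Rps3a1, and none of the 8 around Rpl34, had DC replicate 2 and WT replicate 3 as its lowest libraries. Rpl30 had the next largest SD of the abundant members, at 0.247, and its lowest library was WT replicate 2. Rps10 and Rpl13a had SDs of 0.661 and 0.444, at the low read counts given above.

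**Figure D4:**
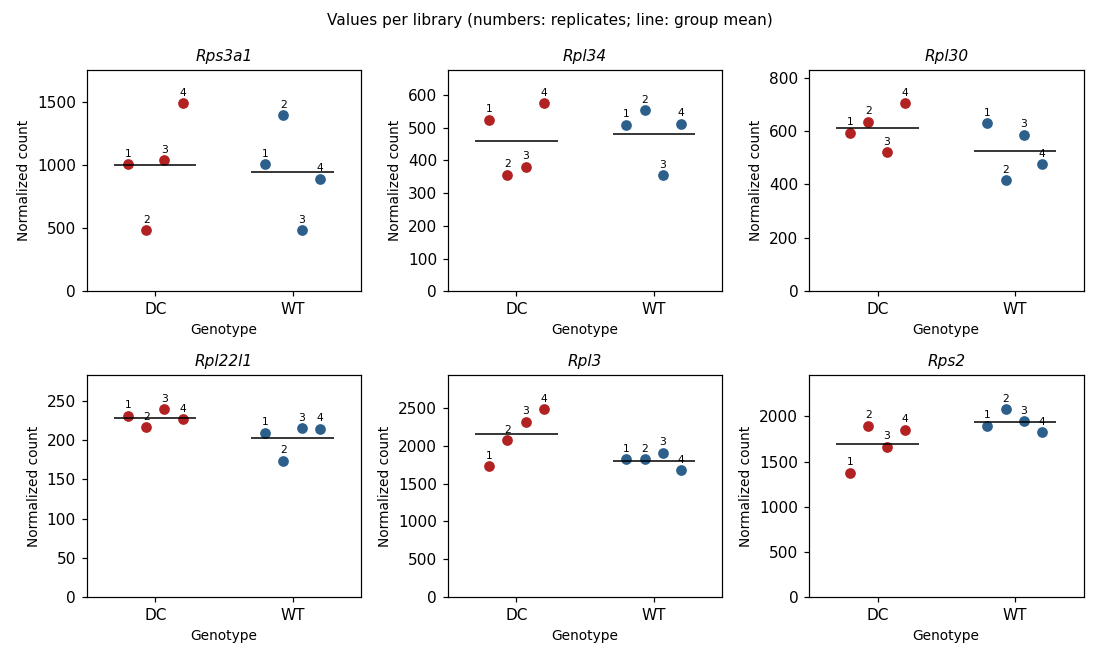
Normalized counts of 6 members in each library, with DC left of WT, replicate numbers beside the points and group means as lines. Rps3a1 is near 480 in DC replicate 2 and WT replicate 3 and highest in DC replicate 4 and WT replicate 2, Rpl22l1 does not overlap between genotypes, and the other 4 do.

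The summed level of the gene set depended on what it was measured against. Under the deposited scaling the 79 members summed to 87427, 88157, 95768 and 105833 normalized counts in DC libraries, against 90746, 94379, 92616 and 89475 in WT libraries, so that the groups overlapped. As a share of all listed reads they took 1.10%, 1.13%, 1.06% and 1.04% in DC libraries, against 0.979%, 0.939%, 0.988% and 0.969% in WT libraries, without overlap. Digestive enzyme and other very abundant genes fill most of that total, and the 20 most abundant genes took 74.7% to 79.7% of reads in DC and 77.5% to 80.3% in WT libraries. With those 20 genes left out of the total, the members took 4.33%, 4.54%, 4.94% and 5.11% in DC libraries, against 4.37%, 4.76%, 4.44% and 4.31% in WT libraries, and the groups overlapped again. The DC mean was 11.6% above the WT mean as a share of all listed reads, and 5.82% above it with those genes left out, or 3.002% without DC replicate 4. These shares are descriptions with no test, on 7705789 to 10517508 reads per library.

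The same held gene by gene. With all libraries set to equal totals, 18 members did not overlap, all with DC higher, against 3.12% of all genes tested in that direction and 3.26% in either, and 13 had an unadjusted limma p under 0.05, against 4.10% of all genes, with none passing adjustment (smallest adjusted p = 0.964). Under it the log2 fold changes were 0.36 for Rpl3, 0.35 for Rpl30, 0.30 for Rpl22l1, 0.27 for both Rps25 and Rps16, -0.08 for Rps2 and -0.01 for Rps27l. That scaling moved the median log2 fold change of all genes tested to 0.11 and that of the members to 0.15. Relative to the median of all genes the members were thus 0.04 higher under equal totals and 0.04 higher under the deposited scaling.

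**Figure D5:**
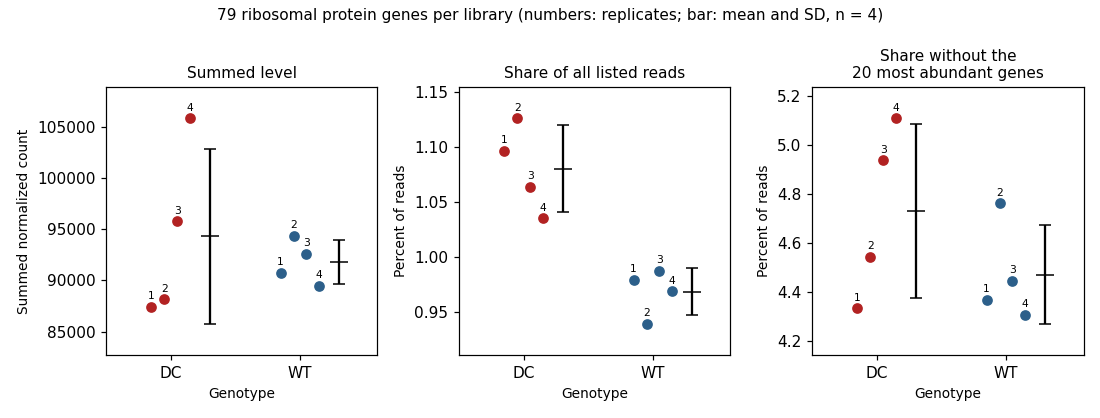
The 79 members per library as summed normalized counts, as percent of all listed reads, and as percent of reads without the 20 most abundant genes, DC left of WT, with replicate numbers, means and SD (n = 4). The groups are apart in the middle panel, at 1.04% to 1.13% in DC and 0.939% to 0.988% in WT libraries, and overlap in the other panels. The vertical axes do not start at 0.

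None of the lists of genes that work with the ribosome held a gene that passed the test. Rack1 and Fau, which encode further small subunit proteins outside the name rule, followed the members: Rack1 had 2825, 2819.8, 3168 and 3936 normalized counts in DC libraries, against 2896, 3141, 3103 and 2836 in WT libraries. Fau had 397, 357, 566 and 572 in DC libraries, against 369, 483, 538 and 423 in WT libraries. Of 23 tested translation factors and other TOP mRNAs, 0 passed the test, 16 lay above 0 and 7 below, and the median log2 fold change was 0.04. Of these 23 genes, 15, 10, 7 and 14 lay above their mean in DC replicates 1 to 4, against 10, 8, 9 and 13 in WT replicates 1 to 4. They were thus not low in DC replicate 1 or high in DC replicate 3, where 24 and 55 of the 79 members lay above their mean. Pabpc1, the poly(A)-binding protein, had the smallest unadjusted p of the 23, with 946, 745, 767 and 661 in DC libraries, against 602, 617, 642 and 678 in WT libraries. DC replicate 4 lay inside the WT range (unadjusted limma p = 0.0275, exact permutation p = 0.0571, limma adjusted p = 0.9997).

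Ribosome biogenesis factors, which build the subunits in the nucleolus, had 37 of 38 genes tested, 0 called, 14 above 0 and 23 below, with a median log2 fold change of -0.02. In DC replicate 4 only 16 of these 37 lay above their mean, where 73 of 79 ribosomal protein genes did. The 18 genes of mTOR and S6 kinase signalling had 0 called, 6 above 0 and 12 below, with a median of -0.03. Mitochondrial ribosomal protein genes had 0 of 75 called, 36 above 0 and 39 below, and a median of -0.002.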

How the data were processed

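RNA from whole pancreas of 8 mice, 4 DC and 4 WT, was sequenced as stranded total RNA libraries. The deposited signal values are normalized counts per gene in 1 table. The authors used the aligner STAR 2.6.0b, the build GRCm38 and DESeq2, per the submitters' processing notes. For the counting tool and any gene filter, the sources used here give nothing. In the deposited table the signal of every gene was a whole multiple of 1 step per library, within 0.001, so whole reads could be recovered for 100% of values, 7705789 to 10517508 per library.

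The 10468 genes with a mean of at least 10 were tested with limma 3.58.1 (trend, R 4.3.3) on log2(normalized count + 1), with genotype as the sole term and Benjamini-Hochberg adjustment over all of them, and a call was an adjusted p under 0.05. The fold change of a low gene depends on the count added: that of Rps10 was -0.33 with 0.5 added and -0.15 with 8 added. On the log2 scale edgeR and DESeq2 both gave Rps10 -0.12, against -0.31 with limma. Single genes also had an exact two-sided permutation test over 70 relabellings. Alternatives were other scalings, pseudocounts and filters, leaving out each library, and count tests of the recovered reads with DESeq2 1.42.0 and edgeR 4.0.16. The steps were tested on simulated data. Transcripts and positions came from GENCODE M21 (GRCm38), promoters from RefSeq (GRCm38.p6). Replicates are numbered in accession order. The limma p-values, SEs and intervals rest on the spread between these animals, drawn towards a trend over all genes tested. For a gene as steady as Rpl14 they thus also reflect other genes. The exact permutation p-values use only the gene's own values in these animals.

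The members and gene lists were chosen with earlier results of these data known. Named members were those called or not overlapping, the 5 smallest p in each direction, the 5 highest and lowest per kilobase, the 5 most and least variable, the stalk genes, the paralog pairs and genes with known duties outside the ribosome; Rpl15 was chosen after its values were seen. In the other lists up to 3 genes with the smallest p could be named. 1 gene left out by the name rule is not analysed here, and 1 gene outside it is not reported here.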

Additional observations from a re-analysis of the deposited data

Results flagged for a closer look

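The check covered 42 genes and shares, with 84 groups of 4 libraries. In 4 of the groups, 1 library was far from the other 3 for the group's whole range. Chance gives about 1 in 20 groups, or 4.2, for independent groups not chosen by their values. Many of these genes were chosen by their values and vary together, so that number cannot decide whether these libraries are unusual. Rps25 in DC replicate 4 had 1337 normalized counts, above the other DC libraries. Rpl10 in WT replicate 4 had 2796 normalized counts, below the other WT libraries, which lay between 2929 and 2946. Rpl22l1 in WT replicate 2 had 173 normalized counts and Rpl39 in WT replicate 2 had 218, both below the other WT libraries. The log2 fold change of Rpl22l1 was 0.17, with means of 229 in DC and 203 in WT libraries, and 0.0998 without WT replicate 2.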

How the results depend on the processing

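No ribosomal protein gene was called under any of the alternatives run. Over all genes 0 were called, and 1 under equal library totals, robust variance moderation and DESeq2, with 0 to 1 when a library was left out. The number of members below 0, 21 of 79, was 3 under equal totals and 13 to 40 when a library was left out, lowest without DC replicate 1 and highest without DC replicate 4. The median log2 fold change, 0.03, was 0.15 under equal totals and -0.00019 to 0.068 when a library was left out, below 0 without DC replicate 4. Members whose groups did not overlap numbered 1 of 79, against 1.87% of all genes tested. Under equal totals they numbered 18 of 79, against 3.26% of all genes tested. Without paralogs and binding proteins 0 of 75 did not overlap. When a library was left out the number was 1 to 5 of 79, when 3.72% to 5.34% of all genes tested did not overlap. The difference in the share of reads, DC minus WT, was 0.112 percentage points, 11.6% of the WT mean. With the 20 most abundant genes left out of the total, an alternative chosen after seeing the data, it was 0.260, 5.82% of the then larger WT mean, and 0.393, 0.322, 0.192 and 0.134 without DC replicates 1 to 4 in turn, and 0.226, 0.357, 0.252 and 0.206 without WT replicates 1 to 4. The log2 fold changes of single genes changed sign for Rpl41 (0.043) and Rpl32 (0.060) under equal totals and for Rps10, which ran from -0.63 without DC replicate 3 to 0.12 without DC replicate 4. The cause was not tested. Depth limits Rps10 and Rpl13a, at 4 to 23 and 19 to 59 reads. No paired analysis was possible because replicate numbers follow accession order and pair no libraries.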
